A study of Mus musculus with 20 samples.

Results

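Cartilage owes its stiffness and its smooth gliding surface to a small set of secreted proteins other than collagen, and 8 genes for such proteins were followed here in a mouse model of a sarcoma driven by a gene fusion. The genes were Acan, Hapln1, Matn1, Matn3, Matn4, Comp, Prg4 and Cytl1. They were taken by gene symbol, which gave 10 of the 45037 probe sets that are not array controls and 8 of the 17097 genes with a probe set of their own, since Hapln1 and Matn3 each have 2 probe sets. CDS are tumors (6 arrays) that grew under the skin of Balb/c nude mice from embryonic mesenchymal cells (eMC) carrying the retrovirus pMYs-CIC-DUX4-IRES-GFP. CIC-DUX4 joins CIC, a transcriptional repressor, to DUX4, a transcription factor. ES are mouse Ewing sarcoma tumors (6 arrays), grown in the same kind of mouse; the labels name no fusion for them. The eMC CIC-DUX4 group (4 arrays) is the primary mesenchymal cells in culture 48 hours after that retrovirus was applied, and the eMC empty group (4 arrays) is such cells at 48 hours with pMYs-IRES-GFP, so both cultures carry a virus with GFP. Nude mice lack most T cells, no sorting of GFP-positive cells is stated, and a tumor holds cells of its host. The CDS samples were individual tumors, but the labels do not say whether the other samples came from separate cultures or animals, and p-values therefore reflect nothing but the variation among these samples.

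Aggrecan (Acan) is the large proteoglycan whose chondroitin sulfate chains hold water in cartilage, and link protein (Hapln1) fastens it to hyaluronan. Matrilins (Matn1, Matn3, Matn4) and cartilage oligomeric matrix protein (Comp) are multi-subunit adaptors that tie collagen fibrils to proteoglycans. Lubricin (Prg4) is made by cells of the joint surface and synovial lining, and Cytl1 is a small secreted protein first known from blood progenitor cells and later found in chondrocytes.

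The 8 genes did not form 1 pattern. Cytl1, Prg4 and Comp were highest in CDS, higher in eMC CIC-DUX4 than in eMC empty, and low in nearly every ES tumor. Hapln1 and Matn1 were bright in eMC CIC-DUX4 and lay at background in the other 3 groups. Acan, Matn3 and Matn4 were bright in eMC CIC-DUX4, varied widely among the CDS tumors and were dim in ES, apart from Matn4 in 1 ES tumor.

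A level below is log2(signal + 1.42), from the deposited array signals, and a fold change is the difference of 2 mean levels. The density of each array's values has a dim and a bright part, and its lowest point between them, called the dip, is used as the upper edge of background. The dips lay at 4.01 to 8.09 in CDS, 4.48 to 5.53 in ES, 3.36 to 4.45 in the 3 eMC CIC-DUX4 arrays that had one, and 5.40 to 8.19 in eMC empty. Signals above the dip made up 31.5% ± 17.0 of the probe sets in CDS (SD, n = 6), 34.1% ± 4.72 in ES (SD, n = 6), 50.9% ± 17.5 in eMC CIC-DUX4 (SD, n = 3) and 17.9% ± 6.90 in eMC empty (SD, n = 4). The arrays' distributions therefore differ although their trimmed means do not, and the median fold change over all probe sets was 1.21 for eMC CIC-DUX4 against eMC empty. The main fold changes are for that reason given as deposited and, marked as quantile, after quantile normalization, which gives all 20 arrays 1 distribution; the percentile of a probe set within its array needs no scaling. Where all arrays of the dimmer group lay below their dips, the fitted fold change is one against background signals, and a bound is given for called probe sets on the deposited scale ("at least N-fold"), in which the dimmer arrays count at the higher of the dip and their own signal. Where the bound is not above 1-fold, none is given and this is said. A probe set counts as called where limma's p, adjusted by Benjamini-Hochberg over all probe sets, was under 0.05 and its log2 fold change was 1 or more in either direction. Groups are said not to overlap where their ranges of deposited levels are apart. This held for 31.8% of all probe sets between the cultures and 9.65% in CDS against ES. It held for 13% in CDS against eMC empty, 13.9% in CDS against eMC CIC-DUX4 and 23.6% in ES against eMC empty. Levels of different probe sets cannot be compared with each other. In all of these bulk samples, fewer cells of a type and less RNA per cell cannot be told apart.

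**Figure D1:**
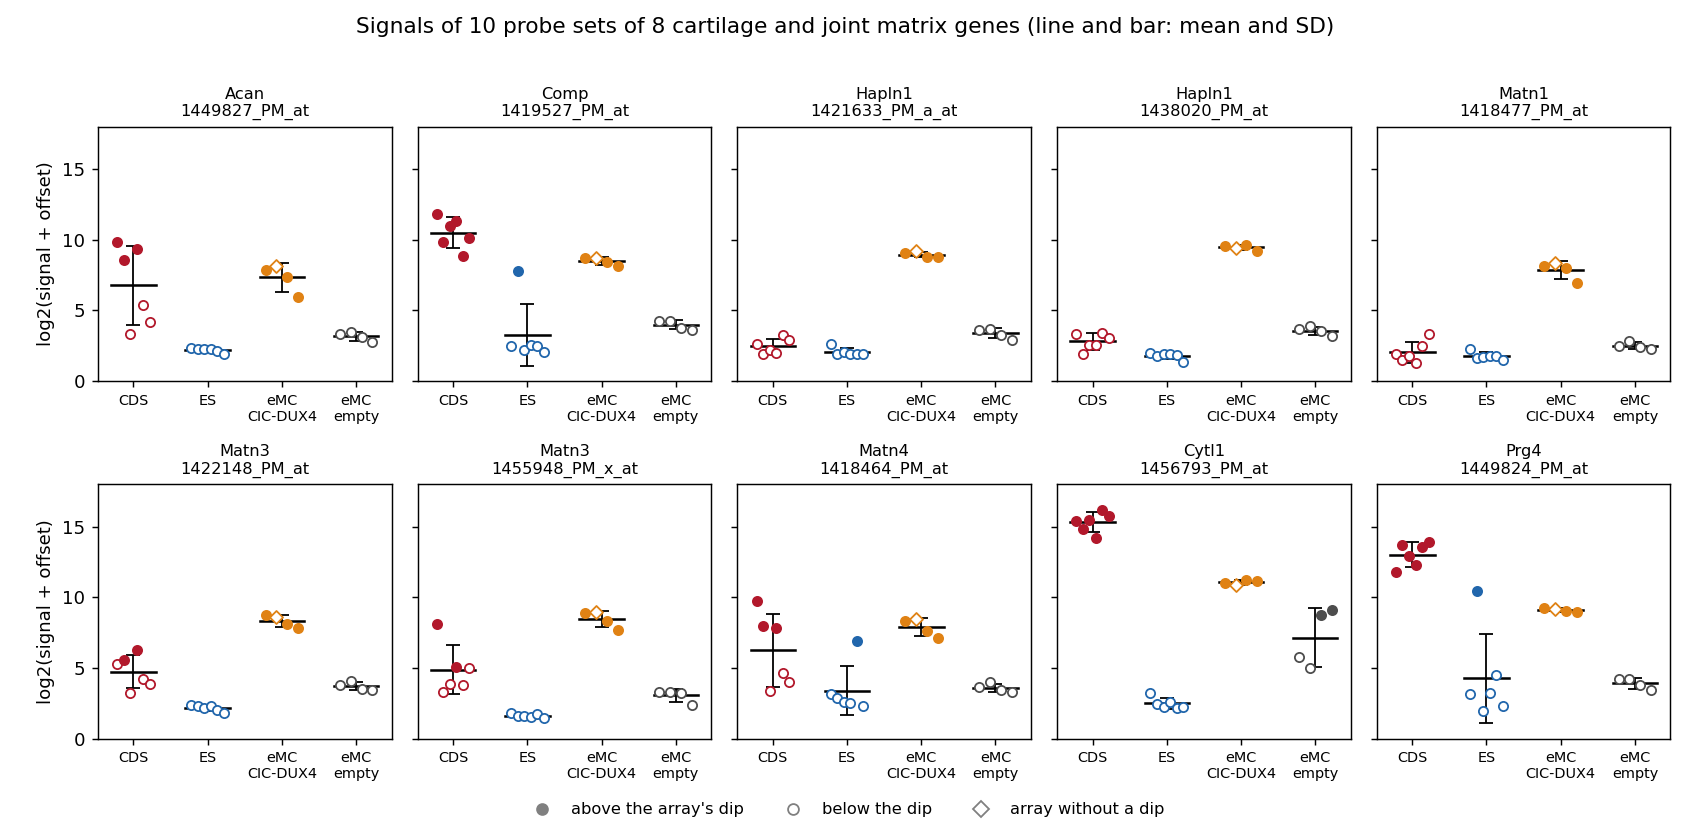
Levels of the 10 probe sets on the y axis, log2(signal + 1.42), in the 20 arrays by group on the x axis; each point is 1 array, filled above the array's dip, open below it and a diamond for the array without a dip, and lines and bars are means and SD. Cytl1 lies at 14.22 to 16.19 in CDS and at 2.17 to 3.23 in ES, whereas both Hapln1 probe sets lie at 8.78 or more in eMC CIC-DUX4 and at 3.85 or less everywhere else.

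The promoters of Matn1 and Hapln1, which followed each other across the groups, and of Cytl1, which did not follow them, are shown for comparison. The sequences are from RefSeq on GRCm38.p6 and run 5′ to 3′ from 250 bases before to 50 bases after the annotated start. They are chr4:130944135-130944434 for Matn1, chr13:89540386-89540685 for Hapln1 and chr5:37735269-37735568 for Cytl1, all on the plus strand. Capitals mark the 8-base CIC site described after them.
Matn1: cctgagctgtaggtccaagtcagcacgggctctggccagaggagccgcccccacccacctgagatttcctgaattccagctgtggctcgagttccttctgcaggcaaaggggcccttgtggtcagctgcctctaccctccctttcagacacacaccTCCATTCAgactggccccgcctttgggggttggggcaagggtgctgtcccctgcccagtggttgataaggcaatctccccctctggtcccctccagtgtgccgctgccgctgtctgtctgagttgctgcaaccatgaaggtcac
Hapln1: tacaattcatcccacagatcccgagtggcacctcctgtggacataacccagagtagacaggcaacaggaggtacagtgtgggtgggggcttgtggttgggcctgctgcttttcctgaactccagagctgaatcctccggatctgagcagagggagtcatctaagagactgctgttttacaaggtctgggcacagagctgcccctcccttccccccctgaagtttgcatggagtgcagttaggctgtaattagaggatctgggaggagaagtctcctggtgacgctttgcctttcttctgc
Cytl1: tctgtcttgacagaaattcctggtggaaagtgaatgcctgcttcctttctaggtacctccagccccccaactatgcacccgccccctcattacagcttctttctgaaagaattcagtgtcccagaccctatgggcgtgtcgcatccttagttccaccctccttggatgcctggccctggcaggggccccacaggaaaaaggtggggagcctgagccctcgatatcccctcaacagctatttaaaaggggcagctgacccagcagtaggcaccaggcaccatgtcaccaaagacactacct

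CIC binds DNA at 8-base sites, and the letters TGAATGAA, TGAATGGA, TCAATGAA and TCAATGGA were searched on both strands of the 7 promoters that RefSeq gave for 6 of the 8 genes (2 for Matn4). The single match was in the Matn1 promoter, TGAATGGA on the minus strand, printed as TCCATTCA, 94 bases before the start. Of 32851 mouse promoters of the same length, 3.84% held at least 1 of the 4 sites, and 1.21% held TGAATGGA. The hexamers ACAAAG and ACAATG, bound by SOX factors, stood in 28.6% of all promoters and in 0 of the 7. The GC content was 61.3% for Matn1, 54.3% for Hapln1 and 55% for Cytl1, against a median of 52.7% over all promoters, and 74% for Acan. These matches are letters in a short window, and no binding was measured. Comp and Prg4 are not among the promoters shown or searched.

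Aggrecan varied widely among the CDS tumors. Acan ranged from 3.34 to 9.86 in CDS with a median of 6.95, against 1.90 to 2.31 in ES with a median of 2.23. CDS 1, 2 and 4 stood above their dips and CDS 3, 5 and 6 below them, and every CDS tumor lay above every ES tumor. The dip was at 5.96, 4.01 and 4.28 in CDS 1, 2 and 4, with 24.5%, 57.3% and 45.6% of all probe sets above it. In CDS 3, 5 and 6 it was at 5.58, 8.09 and 6.93, with 30.0%, 11.7% and 20.1% above. Within its array Acan stood at percentile 61.2 to 85.5 in CDS. The part of these array-wide differences in which tumors passed their dips was not tested. The fold change of CDS against ES was 4.59 ± 1.00 (SE, adjusted p = 0.00434, quantile 4.25 ± 0.67), at least 3.31-fold. In culture Acan was 7.89, 8.16, 7.36 and 5.92 in eMC CIC-DUX4 arrays 5, 6, 7 and 8, against 3.33, 3.44, 3.09 and 2.72 in eMC empty arrays 4, 5, 6 and 7. All eMC empty arrays were below their dips, and the groups did not overlap. The fold change was 4.19 ± 0.67 (SE, adjusted p = 0.000619), and 1.51 ± 0.19 after quantile normalization, at least 1.39-fold. Set against eMC empty, CDS gave 3.63 ± 1.14 (SE, adjusted p = 0.0382, quantile 3.06 ± 0.78), a fold change against background signals with no bound above 1-fold, and CDS 3 at 3.34 lay inside the range of eMC empty. That call was lost when any 1 of 7 of the 10 arrays was left out (CDS 1, 4 or 5, or any eMC empty array), with adjusted p from 0.0513 to 0.0947. CDS did not pass the test against eMC CIC-DUX4, where the fold change was -0.56 ± 1.16 as deposited and 1.55 ± 0.79 after quantile normalization (SE). The levels thus ran eMC CIC-DUX4, CDS, eMC empty, ES, with the first pair not separated and its order depending on the scaling, and the last pair under the fold threshold as deposited (-0.96 ± 0.18, SE, adjusted p = 0.00179) and past it after quantile normalization (-1.18 ± 0.14, SE), on signals below the dips.

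Link protein was seen in 1 group. The Hapln1 probe set 1438020_PM_at was at 9.56, 9.41, 9.64 and 9.20 in eMC CIC-DUX4 arrays 5 to 8, against 3.67, 3.85, 3.53 and 3.15 in eMC empty arrays 4 to 7. The fold change was 5.90 ± 0.44 (SE, adjusted p = 5.13e-05, quantile 3.41 ± 0.19), at least 6.03-fold. The other probe set, 1421633_PM_a_at, gave 5.58 ± 0.48 (SE, adjusted p = 5.70e-05, quantile 3.16 ± 0.18), at least 4.26-fold. Both probe sets separated the cultures without overlap, as 31.8% of all probe sets did. In CDS, 1438020_PM_at lay between 1.89 and 3.40 with a median of 2.80, and in ES between 1.31 and 1.98 with a median of 1.86. All 12 tumors were below their dips with both probe sets. Within its array, 1438020_PM_at stood at a median percentile of 32.7 in CDS, 13.6 in ES, 80.2 in eMC CIC-DUX4, against 63.5 in eMC empty. CDS were lower than eMC CIC-DUX4 by a fitted difference of -6.66 ± 1.01 (SE, adjusted p = 4.19e-05, quantile -5.42 ± 0.38), so that eMC CIC-DUX4 was at least 12.5-fold brighter. For 1421633_PM_a_at that bound was 8.81-fold. No fold change is given for Hapln1 between CDS, ES and eMC empty, because each of these groups was at background. The fits between them called 1438020_PM_at higher in CDS than in ES (adjusted p = 0.0200, not called after quantile normalization) and both probe sets lower in ES than in eMC empty. After quantile normalization 1438020_PM_at and 1421633_PM_a_at were also called lower in CDS than in eMC empty (limma, adjusted p = 0.000641 and 8.91e-07), and as deposited they were not. All of these calls are on signals below the dips. The order thus had eMC CIC-DUX4 called above CDS and eMC empty, ES was not tested against it, and the order of the other 3 groups is one of background signals. In its promoter shown above no CIC site was found among the letters searched.

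Matrilin-1, the matrilin of growing cartilage, followed the same pattern as link protein. Matn1 was at 8.12, 8.34, 8.00 and 6.93 in eMC CIC-DUX4 arrays 5 to 8, against 2.51, 2.80, 2.43 and 2.24 in eMC empty arrays 4 to 7. The cultures did not overlap, and the fold change was 5.35 ± 0.61 (SE, adjusted p = 9.59e-05, quantile 3.22 ± 0.19), at least 1.98-fold. In CDS Matn1 ranged from 1.30 to 3.30 with a median of 1.81, and in ES from 1.49 to 2.26 with a median of 1.71, all below the dips. CDS were lower than eMC CIC-DUX4, with a fitted difference of -5.82 ± 1.02 (SE, adjusted p = 0.000270, quantile -3.86 ± 0.25), eMC CIC-DUX4 being at least 4.10-fold brighter. CDS 6 stood apart within its group at percentile 39.4, against 3.62 to 6.26 in the other CDS tumors. Matn1 was not called between CDS and ES, CDS and eMC empty, or ES and eMC empty, and its signals were at background in all 3 groups. Among the 7 promoters searched, that of Matn1 held the single match to a CIC site.

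Matrilin-3, which joins growth plate and joint cartilage matrix, was present in some CDS tumors. Its probe set 1422148_PM_at ranged from 3.20 to 6.30 in CDS with a median of 4.73, against 1.78 to 2.36 in ES with a median of 2.25. The second probe set, 1455948_PM_x_at, whose name marks probes that may also bind other transcripts, ranged from 3.31 to 8.11 in CDS with a median of 4.43, against 1.46 to 1.80 in ES with a median of 1.59. CDS 4 was above its dip with both probe sets, CDS 2 with the first and CDS 1 with the second, so the probe sets disagreed about which of those tumors were bright, and neither overlapped with ES. The fold changes of CDS against ES were 2.56 ± 0.55 (SE, adjusted p = 0.00403, quantile 1.85 ± 0.51) and 3.25 ± 0.63 (SE, adjusted p = 0.00153, quantile 3.25 ± 0.78). Every ES array was below its dip with both probe sets, so these are fold changes against background signals, and neither has a bound above 1-fold. In culture 1422148_PM_at was at 8.75, 8.57, 8.08 and 7.85 in eMC CIC-DUX4, against 3.81, 4.10, 3.53 and 3.44 in eMC empty. The cultures did not overlap, and the fold change was 4.59 ± 0.50 (SE, adjusted p = 8.46e-05, quantile 1.13 ± 0.20), at least 2.74-fold as deposited. The x_at probe set gave 5.41 ± 0.56 (SE, quantile 3.23 ± 0.30), at least 3.04-fold. CDS were lower than eMC CIC-DUX4 by -3.58 ± 1.01 and -3.60 ± 1.05 (SE, adjusted p = 0.0198 and 0.0260), and after quantile normalization the first was called (-2.11 ± 0.62) and the x_at set was not (-1.74 ± 0.94). Leaving out CDS 3 or any of eMC CIC-DUX4 5, 6 and 7 ended both of these calls, with adjusted p from 0.0518 to 0.115. CDS and eMC CIC-DUX4 did not overlap with the first probe set and did with the x_at set. The difference of CDS from eMC empty was called with neither probe set, and for 1422148_PM_at its sign turned with the scaling (1.01 as deposited, -0.97 quantile). The levels ran eMC CIC-DUX4, CDS, eMC empty, ES, with CDS and eMC empty not separated and both of the lowest groups at background.

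Matrilin-4, the most widely expressed matrilin, varied as Acan did. Matn4 ranged from 3.34 to 9.74 in CDS with a median of 6.22. Read against the same unequal dips as Acan, CDS 1, 2 and 4 were again above them and CDS 3, 5 and 6 below. In ES it ranged from 2.30 to 6.93 with a median of 2.72, and ES 49 alone was above its dip. CDS 3, 5 and 6 lay inside the range of ES, and the fold change of 2.85 ± 1.09 (SE, adjusted p = 0.0931, quantile 1.86 ± 0.76) was not called. Without CDS 3 it was 3.43 (adjusted p = 0.0462) and without ES 49 it was 3.55 (adjusted p = 0.0384), past the threshold in both cases. In culture Matn4 was at 8.33, 8.50, 7.60 and 7.13 in eMC CIC-DUX4, against 3.65, 3.99, 3.43 and 3.28 in eMC empty. The cultures did not overlap, and the fold change was 4.30 ± 0.56 (SE, adjusted p = 0.000178), at least 2.04-fold as deposited. After quantile normalization it was 0.88 ± 0.19 (SE) and was not called. CDS was called neither against eMC empty (2.65 ± 1.09, SE, quantile 0.67 ± 0.77) nor against eMC CIC-DUX4 (-1.65 ± 1.12, SE, quantile -0.21 ± 0.78). The mean levels ran eMC CIC-DUX4, CDS, eMC empty, ES, and none of the 3 neighbouring pairs in that order was called.

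Comp, the adaptor also found in tendon, was above the dip in all CDS tumors. It ranged from 8.84 to 11.82 in CDS with a median of 10.55, against 2.07 to 7.76 in ES with a median of 2.47. ES 46 alone of the ES tumors was above its dip, and the groups did not overlap. The fold change was 7.23 ± 0.99 (SE, adjusted p = 3.37e-05, quantile 6.89 ± 0.71), and without ES 46 it was 8.13 ± 0.86 (SE). In culture Comp was at 8.72, 8.74, 8.39 and 8.15 in eMC CIC-DUX4, against 4.25, 4.22, 3.76 and 3.63 in eMC empty. The cultures did not overlap, and the deposited fold change was 4.53 ± 0.47 (SE, adjusted p = 7.45e-05), at least 3.12-fold on that scale. The percentile of Comp within its array was 72.8 to 73.2 in eMC CIC-DUX4 and 68.1 to 71.4 in eMC empty. The quantile fold change of 0.77 ± 0.18 (SE) was under the threshold of 1. It was also under that bound, which is 1.64 on the log2 scale. CDS rose above eMC empty by 6.51 ± 0.95 (SE, adjusted p = 1.82e-05, quantile 4.43 ± 0.47), at least 12.3-fold. CDS also rose above eMC CIC-DUX4, by 1.98 ± 0.62 (SE, adjusted p = 0.0385, quantile 3.65 ± 0.45). The deposited call in that comparison was lost without any 1 of 7 arrays (CDS 1, 3 or 4, or any eMC CIC-DUX4 array), with adjusted p from 0.0572 to 0.122, while the quantile value was called. The levels ran CDS, eMC CIC-DUX4, eMC empty, ES, and the lowest pair was not called as deposited (-0.72 ± 0.95, SE). ES was called lower than eMC empty after quantile normalization (-2.46 ± 0.73, SE, adjusted p = 0.0212), and without ES 46 also as deposited (-1.62 ± 0.26, SE, adjusted p = 0.000811), all on signals below the dips except ES 46.

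Lubricin marked CDS. Prg4 ranged from 11.77 to 13.93 in CDS with a median of 13.25, against 1.98 to 10.42 in ES with a median of 3.21. Every CDS tumor was above its dip, ES 46 was the only ES tumor above it, and the groups did not overlap. The fold change was 8.76 ± 1.07 (SE, adjusted p = 8.67e-06, quantile 8.02 ± 0.96), and without ES 46 it was 9.99 ± 0.75 (SE). In culture Prg4 was at 9.24, 9.17, 9.05 and 8.94 in eMC CIC-DUX4, against 4.18, 4.24, 3.76 and 3.45 in eMC empty. All eMC empty arrays were below their dips, and the fold change was 5.19 ± 0.45 (SE, adjusted p = 5.72e-05, quantile 1.89 ± 0.17), at least 4.72-fold as deposited. CDS rose above eMC CIC-DUX4 by 3.93 ± 0.42 (SE, adjusted p = 1.12e-07, quantile 5.11 ± 0.36) and above eMC empty by 9.12 ± 0.77 (SE, adjusted p = 1.26e-09, quantile 7.01 ± 0.37), at least 71.9-fold. Neither pair of groups overlapped. The order was CDS, eMC CIC-DUX4, ES, eMC empty, the last pair not separated (0.36 ± 1.34, SE) and of a sign that turned after quantile normalization (-1.01 ± 1.13, SE). ES was not tested against eMC CIC-DUX4.

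Cytl1 was among the brightest probe sets of every CDS tumor, at percentile 99.6 to 99.9 within the array. It ranged from 14.22 to 16.19 in CDS with a median of 15.44, against 2.17 to 3.23 in ES with a median of 2.36, where every array was below its dip. The groups stood far apart, with a fold change of 12.83 ± 0.60 (SE, adjusted p = 1.06e-11, quantile 11.86 ± 0.28), at least 1231-fold. In culture Cytl1 was at 11.01, 10.86, 11.20 and 11.17 in eMC CIC-DUX4 arrays 5 to 8, against 5.79, 4.99, 8.75 and 9.08 in eMC empty arrays 4 to 7. The cultures did not overlap, and the eMC empty arrays were uneven, 6 and 7 being above their dips and 4 and 5 below. Their percentiles were closer, 77.1 to 84.2, against 91.4 to 91.9 in eMC CIC-DUX4. The fold change was 3.91 ± 0.81 (SE, adjusted p = 0.00308, quantile 2.42 ± 0.23). CDS rose above eMC CIC-DUX4 by 4.25 ± 0.27 (SE, adjusted p = 1.46e-12, quantile 3.89 ± 0.09) and above eMC empty by 8.16 ± 0.59 (SE, adjusted p = 4.67e-11, quantile 6.31 ± 0.23). ES fell below eMC empty by a fitted difference of -4.67 ± 0.76 (SE, adjusted p = 0.000662, quantile -5.55 ± 0.38), with eMC empty at least 4.31-fold brighter. The order was CDS, eMC CIC-DUX4, eMC empty, ES, and each group was called against its neighbour.

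Counted over the 10 probe sets, 7 were called higher in CDS than in ES and 0 lower, where 5.84% of all probe sets were called higher. After quantile normalization 6 were higher, against 8.92% of all probe sets. The members' median fold change was 3.05, against 0.36 over all probe sets. In eMC CIC-DUX4 against eMC empty, 10 of 10 were called higher, where 24.2% of all probe sets were. After quantile normalization 8 were, Comp and Matn4 being under the fold threshold, against 4.47% of all probe sets, and the members' median was 2.16, against -0.02 over all. When each array was instead scaled to the same median, 0 of the 45037 probe sets passed in this comparison, and 9 of the 10 members had an unadjusted p under 0.05, against 19.8% of all probe sets. For CDS against eMC empty 4 were called higher (Acan, Comp, Cytl1, Prg4), where 7.27% of all probe sets were. After quantile normalization the same 4 were higher, against 11.0% of all, and both Hapln1 probe sets were lower, against 11.9%. CDS against eMC CIC-DUX4 had 3 higher (Comp, Cytl1, Prg4), where 2.41% of all were, and 5 lower (both Hapln1, Matn1, both Matn3), where 6.39% were. The quantile counts there were 3 higher and 4 lower, against 10.3% and 11.4% of all probe sets. ES against eMC empty had 0 higher and 5 lower, where 5.82% of all were lower, and 7 lower after quantile normalization, against 11.2%. Of those 5, Cytl1 was the only one above the dip on any eMC empty array. The groups did not overlap for 10 of the 10 between the cultures, where 31.8% of all probe sets did not. That number was 6 for CDS against ES (9.65% of all) and 3 for CDS against eMC empty (13%). It was 7 for CDS against eMC CIC-DUX4 (13.9%) and 6 for ES against eMC empty (23.6%). These comparisons share arrays, so their counts are not independent of each other.

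**Figure D2:**
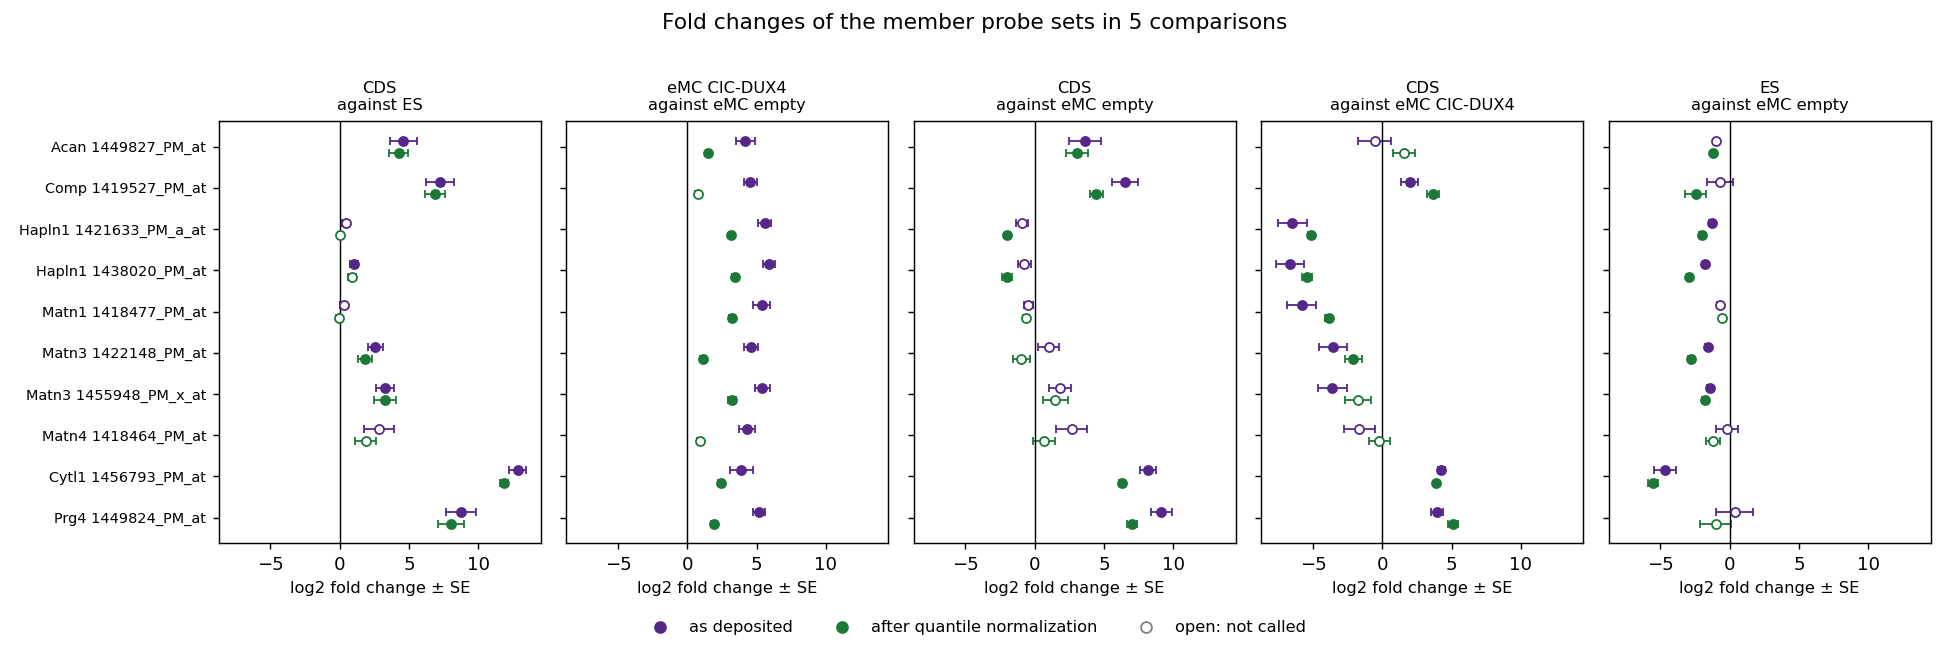
Log2 fold changes with SE (x axis) of the 10 probe sets (rows) in the 5 comparisons (panels), as deposited and after quantile normalization; filled points were called. All 10 deposited values are above 0 between the cultures, and for CDS against eMC CIC-DUX4 Comp, Prg4 and Cytl1 are above 0 while Hapln1 and Matn1 lie between -6.66 and -5.82 as deposited and between -5.42 and -3.86 after quantile normalization.

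The same directions held for other cartilage genes in part. Of 8 cartilage collagen genes, each read from its brightest probe set, 5 were called higher in CDS than in ES, where 7.21% of 17097 genes were called higher and 5.59% lower. After quantile normalization 7 of the 8 were higher, against 11.9% of all genes. The median fold change of the 8 was 4.36, against 0.30 over all genes. Col9a1, a chain of the collagen that coats type II fibrils, was at 14.57 in CDS and 3.00 in ES (11.57 ± 0.80, SE, quantile 11.32 ± 0.47), and Col2a1, the main fibril collagen of cartilage, at 13.12 in CDS and 2.16 in ES (10.97 ± 0.68, SE, quantile 10.46 ± 0.26). Every ES array was below its dip with Col2a1, and CDS was at least 269.8-fold brighter. In eMC CIC-DUX4 against eMC empty 6 were called higher, where 31.9% of genes were called higher and 3.33% lower, and 6 also after quantile normalization, against 5.87% of genes. Col2a1 was at 12.76 in eMC CIC-DUX4, against 11.61 in eMC empty (1.15 ± 0.16, SE, quantile 1.63 ± 0.04). For CDS against eMC empty 5 were higher on both scales, where 9.36% of genes were called higher and 3.61% lower, and 12.7% were higher on the quantile scale. In CDS against eMC CIC-DUX4 Col9a1 alone was called (2.51 ± 0.26, SE, quantile 2.07 ± 0.11), where 3.35% of genes were called higher and 8.38% lower, and after quantile normalization 3 were higher, against 12.2% of genes. ES against eMC empty had 3 lower (Col2a1, Col9a1, Col9a3), where 20.9% of genes were called higher and 7.77% lower, and 5 lower after quantile normalization, against 13.5% of genes.

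Among 15 other cartilage matrix genes, 7 were called lower and 1 higher in CDS than in eMC CIC-DUX4, where 8.38% and 3.35% of all genes were. Their median fold change was -2.05, against -0.71 over all genes. The counts were 7 and 1 after quantile normalization as well, where 14.6% of all genes were called lower and 12.2% higher. Cnmd, which codes for chondromodulin, was at 2.52 in CDS and 9.92 in eMC CIC-DUX4 (-7.40 ± 1.01, SE, quantile -6.47 ± 0.40), and Epyc, a small proteoglycan of growth cartilage, at 1.99 and 8.92 in the same groups (-6.93 ± 1.02, SE, quantile -5.64 ± 0.20). Both genes were below the dip in every CDS tumor, and eMC CIC-DUX4 was at least 17.3-fold brighter for Cnmd and at least 8.61-fold for Epyc. Snorc, a membrane proteoglycan of chondrocytes, was at 3.55 in CDS and 8.60 in eMC CIC-DUX4 (-5.05 ± 1.04, SE, quantile -3.60 ± 0.28). Hapln1 and Matn1 were low in CDS along with these genes. Against ES, CDS had 4 higher (3 after quantile normalization), where 7.21% of all genes were (11.9%). Fmod, a collagen-binding proteoglycan, led them at 11.39 in CDS and 4.64 in ES (6.74 ± 1.04, SE, quantile 6.24 ± 0.83). Of the 15, 8 were called higher in eMC CIC-DUX4 than in eMC empty, where 31.9% of all genes were, and 5 after quantile normalization, where 5.87% were. CDS against eMC empty had 2 higher and 2 lower (2 and 5 after quantile normalization), where 9.36% and 3.61% of all genes were (12.7% and 13.8%). ES against eMC empty had 4 lower (6 after quantile normalization), where 7.77% of all genes were (13.5%).

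**Figure D3:**
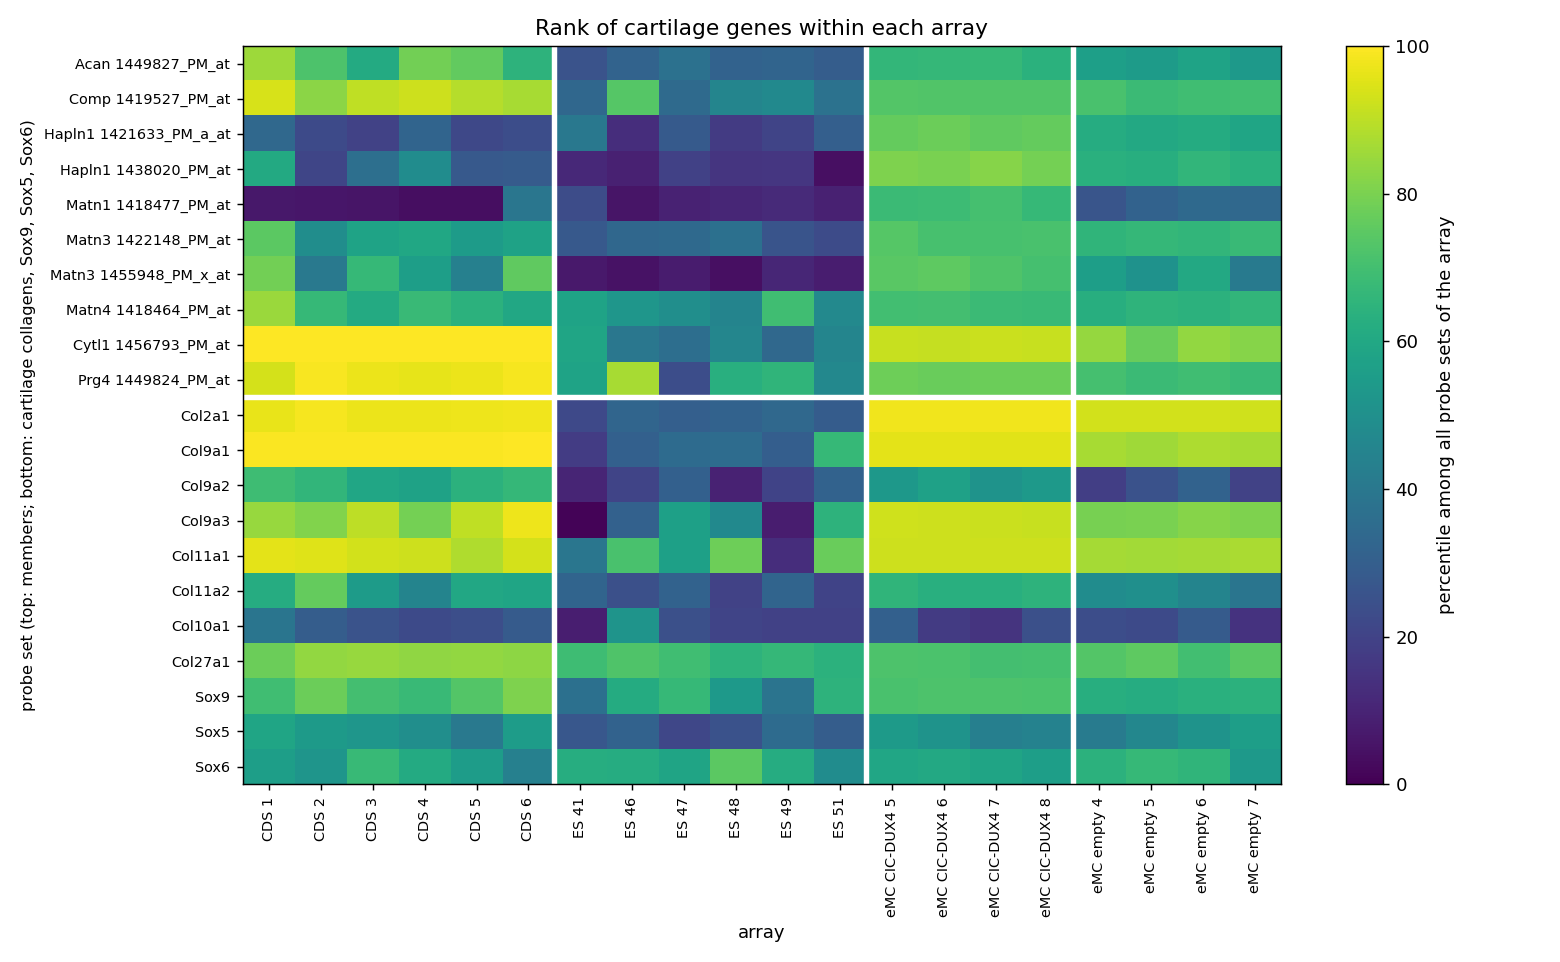
Percentile (colour, 0 to 100) of each member probe set (upper rows) and of cartilage collagens and Sox9, Sox5 and Sox6 (lower rows) among all probe sets of each of the 20 arrays (columns, by group). Cytl1 stands at 99.6 to 99.9 in every CDS tumor and at 33.8 to 58.9 in ES, whereas Matn1 stands at 3.62 to 39.4 in CDS and 67.0 to 70.6 in eMC CIC-DUX4.

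Of 14 regulators of chondrocytes, 5 were called higher in CDS than in ES (7 after quantile normalization), where 7.21% of all genes were (11.9%). In eMC CIC-DUX4 against eMC empty 6 were called higher (3 after quantile normalization), where 31.9% of all genes were (5.87%). Sox9, the transcription factor that switches on Col2a1 and Acan, was at 8.33 in eMC CIC-DUX4, against 3.50 in eMC empty (4.83 ± 0.50, SE, quantile 1.70 ± 0.17), where every eMC empty array was below its dip and the bound was at least 2.77-fold. Between CDS, at 6.56, and ES, at 4.06, Sox9 was not called as deposited (2.50 ± 1.07, SE) and was after quantile normalization (2.78 ± 0.59, SE). Pth1r, the receptor that slows chondrocyte maturation, was lower in CDS, at 6.10, than in eMC CIC-DUX4, at 10.20 (-4.09 ± 0.94, SE, quantile -3.04 ± 0.30). CDS against eMC empty had 4 of the 14 higher (6 higher and 1 lower after quantile normalization), against 9.36% of all genes (12.7% and 13.8%). CDS against eMC CIC-DUX4 had 1 higher and 2 lower as deposited, where 3.35% and 8.38% of all genes were. After quantile normalization 5 were higher and 2 lower there, against 12.2% and 14.6%, so the balance of directions turned with the scaling. ES against eMC empty had 2 higher and 2 lower (1 and 3 after quantile normalization), where 20.9% and 7.77% of all genes were (12.4% and 13.5%).

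The chains that aggrecan carries are built by a further set of enzymes. Of 20 genes for chondroitin sulfate and hyaluronan synthesis, 7 were called higher in CDS than in ES, where 7.21% of all genes were, and 12 higher and 1 lower after quantile normalization, where 11.9% and 11.4% were. Chst7, a chondroitin sulfotransferase, was at 9.10 in CDS and 3.22 in ES (5.88 ± 0.85, SE, quantile 4.94 ± 0.37), and the hyaluronan synthase genes Has3 and Has2 gave 5.73 ± 0.76 and 5.03 ± 1.09 (SE, quantile 5.14 ± 0.40 and 4.70 ± 0.67). Every ES array was below its dip with Chst7 and with Has3, the bounds being at least 16.6-fold and at least 6.62-fold. Chst7 and Has3 were also higher in CDS than in eMC CIC-DUX4 (4.09 ± 1.03 and 4.21 ± 1.10, SE, quantile 5.31 ± 0.31 and 4.90 ± 0.45). In culture 8 of the 20 were called higher and 1 lower as deposited, where 31.9% and 3.33% of all genes were. After quantile normalization it was 0 higher and 1 lower, against 5.87% and 3.48%. CDS against eMC empty had 3 higher and 1 lower (5 and 5 after quantile normalization), where 9.36% and 3.61% of all genes were (12.7% and 13.8%). CDS against eMC CIC-DUX4 had 2 and 1 (4 and 1), against 3.35% and 8.38% (12.2% and 14.6%). ES against eMC empty had 1 and 3 (0 and 7), against 20.9% and 7.77% (12.4% and 13.5%).

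Of 12 proteases and inhibitors that act on aggrecan or Comp, 3 were called higher and 1 lower in CDS than in ES (5 and 2 after quantile normalization), where 7.21% and 5.59% of all genes were (11.9% and 11.4%). Adamts4, an aggrecanase, was at 11.14 in CDS and 9.21 in ES (1.93 ± 0.55, SE, quantile 2.62 ± 0.58), Mmp13, a collagenase of cartilage, rose by 4.47 ± 0.86 (SE, quantile 4.94 ± 1.09), and Mmp3 fell by 3.89 on the log2 scale, and by 4.04 after quantile normalization. Against eMC CIC-DUX4 2 were higher and 4 lower in CDS (2 and 5 after quantile normalization), where 3.35% and 8.38% of all genes were (12.2% and 14.6%). Among the lower ones were the aggrecanases Adamts15 (-5.86 ± 1.06, SE, quantile -5.37 ± 0.31) and Adamts5 (-4.54 ± 0.99, SE, quantile -4.60 ± 0.71). Against eMC empty CDS had 2 higher and 3 lower (2 and 5 after quantile normalization), where 9.36% and 3.61% of all genes were (12.7% and 13.8%). ES had 1 and 5 (1 and 8) there, against 20.9% and 7.77% (12.4% and 13.5%). For eMC CIC-DUX4 it was 5 and 1 (3 and 1), against 31.9% and 3.33% (5.87% and 3.48%). Of 10 genes related by sequence to the members, 3 were higher in CDS than in ES on both scales, against 7.21% and 11.9% of all genes. Vcan, the relative of aggrecan in soft tissue, was at 14.79 in CDS and 8.88 in ES (5.91 ± 0.45, SE, quantile 6.53 ± 0.54). Matn2 was at 6.88 in CDS and 2.26 in ES (4.62 ± 0.89, SE, quantile 3.62 ± 0.65), where every array was below its dip, so that the bound was at least 3.55-fold. It was at 10.75 in eMC CIC-DUX4 (fold change of CDS -3.87 ± 0.91, SE, quantile -4.26 ± 0.73). Thbs2 was the third, at 2.55 ± 0.46 (SE, quantile 3.17 ± 0.51) above ES. Between the cultures 3 of the 10 were higher in eMC CIC-DUX4 as deposited, a share close to the 31.9% of all genes called higher there. After quantile normalization 2 were, against 5.87% of all genes. CDS had 1 higher and 1 lower than eMC empty (2 and 1 after quantile normalization) and 1 and 1 than eMC CIC-DUX4 (2 and 2). ES had 3 lower than eMC empty on both scales. The shares of all genes in these comparisons are those given above for the proteases.

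Profiles across the 20 arrays were compared by the root mean square difference of quantile-normalized log2 levels, each centred on its own mean, over 15431 genes. Among the members the closest pairs were Matn3 with Matn4 (1.13) and Hapln1 with Matn1 (1.15). Nearest to Cytl1 were Col9a1 (1.05), Ebf3 (1.24) and Itga8 (1.42), and nearest to Prg4 were Fndc1 (0.88), Cyp26b1 (1.08) and Itgb3 (1.33). These genes were, like both members, highest in CDS; Ebf3, a transcription factor, was at 13.24 in CDS, 2.76 in ES, 10.02 in eMC CIC-DUX4, against 5.98 in eMC empty. Nearest to Comp were Dkk3 (0.87), Car2 (0.93) and Tcaf2 (0.94). Nearest to Hapln1 were Agt (0.58), Slc14a1 (0.66) and Gsta2 (0.73), and nearest to Matn1 were Spon2 (0.42), Sirt3 (0.48) and Ahrr (0.50). Those 6 genes were brightest in eMC CIC-DUX4; Agt, angiotensinogen, was at 3.55 in CDS, 2.40 in ES, 10.01 in eMC CIC-DUX4, against 3.99 in eMC empty. Nearest to Acan were Smoc1 (0.81), Nppb (0.89) and Ramp3 (0.98), to Matn3 Mmp11 (0.69), Pdlim2 (0.69) and Ermp1 (0.71), and to Matn4 Hoxb6 (0.85), Galnt9 (0.86) and Olig1 (0.87). A gene of small variation comes near any other such gene by this measure, so the distances are not comparable between members.

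**Figure D4:**
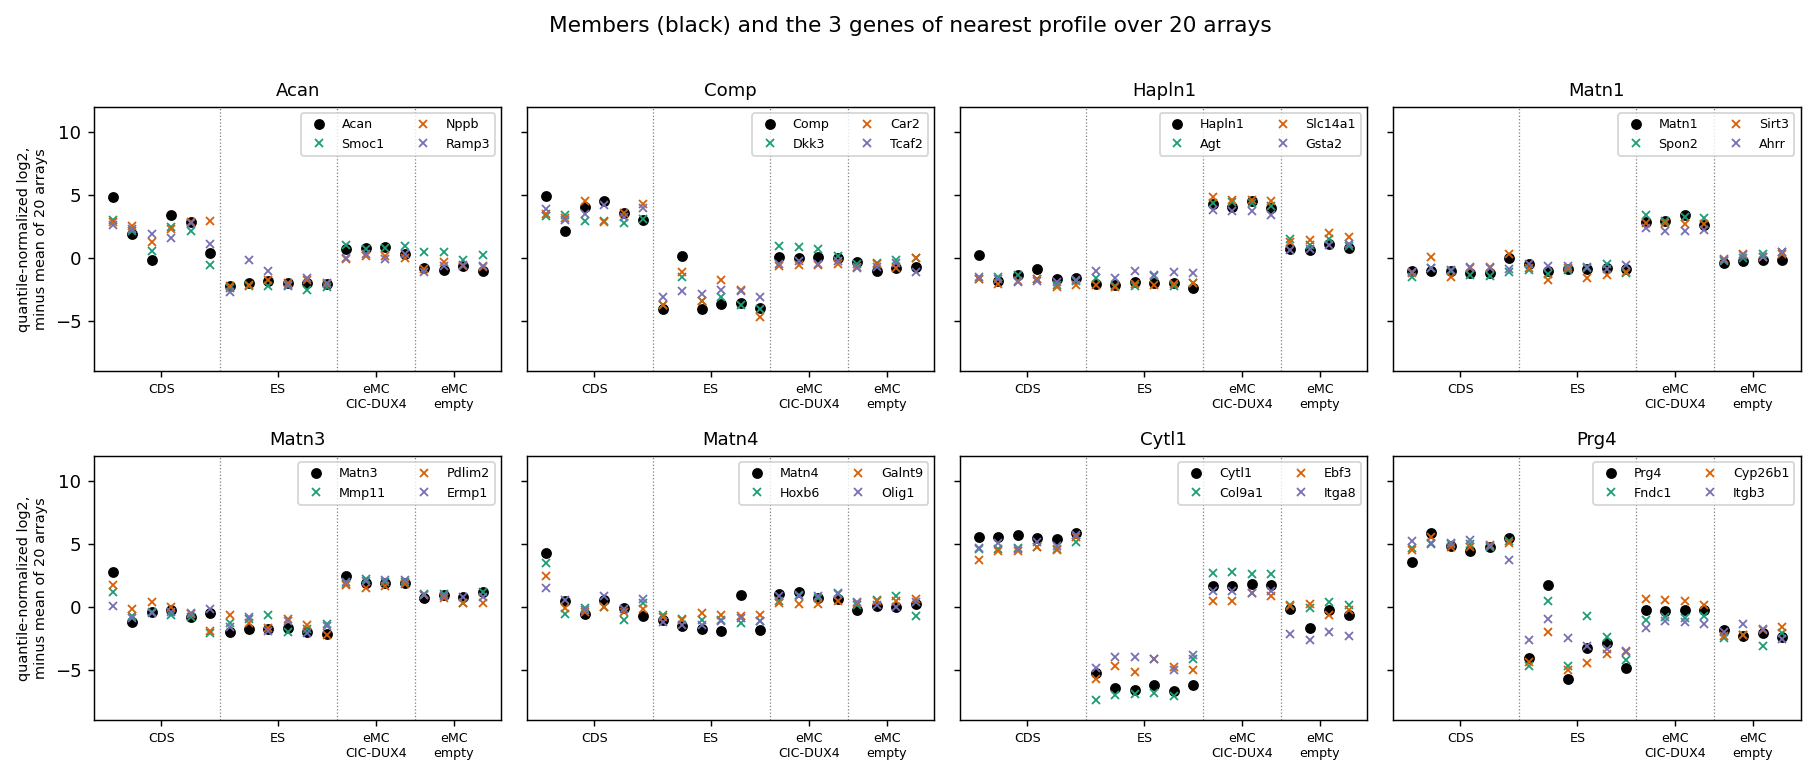
Quantile-normalized log2 level minus the mean of 20 arrays (y axis) for the 8 members (black dots) and the 3 genes of nearest profile (crosses), array by array in the order of the groups (x axis). Cytl1 and Col9a1, with a difference of 1.05, are high in CDS and low in ES, and Hapln1 and Agt, with 0.58, are high in eMC CIC-DUX4.

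Markers of cell types were read beside these results. The chondrocyte list is no separate reading, since Acan, Matn1 and Hapln1 are members. Its other genes, Col2a1, Col9a1, Col11a2 and Sox9, belong to the lists above. The 7 chondrocyte markers had all of Acan, Col2a1, Col11a2, Matn1 and Hapln1 below the dip in every ES tumor, and Matn1 and Hapln1 below it in every CDS tumor, although their sum, led by collagen, was 21182 to 57550 in linear signal in CDS, 19.4 to 209 in ES, 11628 to 13570 in eMC CIC-DUX4 and 3131 to 4399 in eMC empty. In eMC CIC-DUX4 all 7 were above the dip on every array that had one, and in eMC empty Acan, Sox9, Col11a2, Matn1 and Hapln1 were below it. All 7 CIC target genes on the list, Etv1, Etv4, Etv5, Spry4, Dusp6, Vgf and Muc5ac, were called higher in CDS than in ES. Of all genes 7.21% were, and the list was chosen with earlier results of these data known. Between the cultures 5 of the 7 were called higher (3 after quantile normalization), where 31.9% of all genes were (5.87%). Of the 7 Ewing sarcoma markers 4 to 5 were above the dip in each ES tumor, with Nr0b1 alone below it in all. In CDS 2 to 5 were above it, in eMC empty 2, and in eMC CIC-DUX4 5 on each array with a dip. CDS had 2 of these markers called higher than ES and 1 lower, where 7.21% and 5.59% of all genes were. The 10 tendon and joint lining markers summed to linear signals of 5110 to 20515 in CDS and 7512 to 21271 in ES, with 2 to 8 and 4 to 6 above the dip. Tnmd, Mkx and Htra4 were below the dip in every ES tumor, and Mkx and Htra4 in every CDS tumor. Tnmd and Fmod, the latter also counted above, were called higher in CDS than in ES, and Egr1 and Cd55 lower. After quantile normalization 2 were higher and 3 lower. Of all genes 7.21% were called higher and 5.59% lower (11.9% and 11.4% after quantile normalization). Cd55 was at 5.74 in CDS and 11.34 in ES (-5.59 ± 0.97, SE, quantile -6.36 ± 0.86). Tnmd was at 6.48 in CDS, against 11.88 in eMC empty. ES 46, the tumor with Comp and Prg4, had the highest tendon and joint lining sum in ES, 21271, against 7512 to 14868 in the others. It also had the highest sum of 10 endothelial markers, 5281, against 725 to 4510. Its sum was highest in ES as well for proteases and inhibitors (28310) and for relatives of the members (12893). The same held for other cartilage matrix genes (1182) and for chondroitin sulfate and hyaluronan synthesis (10006). It was not highest for cartilage collagens, chondrocyte regulators, macrophage or skeletal muscle markers. The part of tendon, joint lining, endothelial or other cells in the Comp and Prg4 signals of ES 46 was not tested. Endothelial markers summed to 4919 to 10087 in CDS, 82.5 to 1250 in eMC CIC-DUX4 and 41.2 to 68.4 in eMC empty, where all 10 were below the dip. Macrophage markers (11 genes) summed to 14634 to 78193 in CDS and 22619 to 70277 in ES, with 4 to 11 of them above the dip in CDS and 11 in ES. None was called between these tumors, where 7.21% of all genes were called higher in CDS and 5.59% lower. Their sum was 23874 to 30623 in eMC CIC-DUX4 and 24344 to 33147 in eMC empty, where Csf1r, C1qa, C1qb and C1qc were below the dip on every array. Single markers differed between the cultures despite these sums. In eMC CIC-DUX4 7 of the 11 were called higher and 0 lower, where 31.9% and 3.33% of all genes were. After quantile normalization 3 were higher and 3 lower (C1qa, C1qb and C1qc), against 5.87% and 3.48%. CDS had 5 of the 11 higher than eMC empty (6 higher and 1 lower after quantile normalization), against 9.36% of all genes (12.7% and 13.8%). C1qa, a complement subunit, was at least 35.8-fold brighter in CDS than in eMC empty as deposited, with a quantile fold change of 4.71 ± 0.47 (SE). CDS had 4 higher and 1 lower than eMC CIC-DUX4 (5 and 2), where 3.35% and 8.38% of all genes were (12.2% and 14.6%). Adipocyte markers (4 genes on the array) summed to 4889 to 29434 in CDS, 4022 to 17144 in ES, 25953 to 34618 in the eMC CIC-DUX4 arrays and 49314 to 85050 in eMC empty. All 4 were lower in CDS than in eMC empty on both scales, where 3.61% of all genes were called lower (13.8% after quantile normalization). Among them was Pparg (-7.16 ± 1.07, SE, quantile -7.57 ± 0.41), and Lep was below the dip in all groups. Osteoblast markers (5 on the array) summed to 59.2 to 3222 in CDS, 13.6 to 214 in ES, 53.6 to 588 in the eMC CIC-DUX4 arrays and 19.5 to 35.5 in eMC empty, where none was above the dip. Of these Ibsp alone, a bone sialoprotein, was called higher in CDS than in ES, where all 6 arrays had a deposited log2 value of 0. It was also the only one called higher than in eMC empty. Of all genes 7.21% were called higher in CDS than in ES, and 9.36% than in eMC empty. The part of macrophages, fat cells and bone cells in the differences of Prg4, Comp and Cytl1 between CDS and the cultures was not tested. Skeletal muscle markers (11 genes) reached 156215 to 393835 in CDS 3, 4 and 5 and 1164 to 2348 in CDS 1, 2 and 6. The part of muscle in the spread of Acan and Matn4 among CDS tumors was not tested.

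The RNA of the CDS tumors was also more 3′-weighted. The log2 signal of the 3′ minus that of the 5′ control probe set for Actb was 0.80 ± 0.36 in CDS and 0.25 ± 0.05 in ES (SD, n = 6 each, exact permutation p = 0.00216, adjusted p = 0.0238 over 25 tests). It was 0.76, 0.70 and 0.31 in CDS 1, 2 and 4, where Acan was bright, and 0.58, 1.16 and 1.28 in CDS 3, 5 and 6, where it was below the dip. The part of RNA quality in the spread of Acan, Matn3 and Matn4 among CDS tumors was not tested.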

How the data were processed

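RNA of 20 mouse samples, 100 ng each, had been hybridised to Affymetrix perfect-match arrays, 1 array per sample. The deposited values are log2 signals per probe set, made with MAS5 per the submitters' processing notes. Which version and target were used is not given in the sources used here. Trimmed means of the linear signals, with 2% left out at each end, were 500.105 to 500.337 on every array. Of 45141 probe sets, 104 array controls were left out. Gene names came from the platform annotation (28898 probe sets with 1 symbol, 551 with several, 15588 with none), and all 8 genes were matched by Entrez number.

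Deposited log2 values were turned to linear signals, an offset of 1.42 (0.25 times the median array median) was added, and log2 was taken again. Each comparison was fitted on its own groups with limma 3.58.1 in R 4.3.3 (lmFit, eBayes with trend), over 45037 probe sets with no filter, two-sided. The dip came from a density with a bandwidth of 0.35; eMC CIC-DUX4 6 had none. For gene lists the probe set of highest mean stood for each of 17097 genes. Exact permutation tests served for single measures of an array. The fits were checked on simulated data. The members and lists were chosen with earlier results of these data known. Genes of nearest profile were named by a rule, the 3 smallest root mean square differences; list genes were named from up to 4 called genes of largest fold change in a comparison, and Col2a1 (between the cultures) and Sox9 (CDS against ES) fall outside that rule and were chosen after their values were seen. The alternatives were other offsets, a filter, 2 other scalings, no trend, 1 fit of all groups, 1 probe set per gene, array weights, a replicate block and left-out arrays. The number of arrays limits the precision.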

Additional observations from a re-analysis of the deposited data

Results flagged for a closer look

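Single arrays stood apart from the rest of their group in 9 of the 40 sets of values (10 probe sets in 4 groups), by the gap to the nearest array as a share of the group's range (Dixon's test). Chance gives about 1 in 20. In 3 of them the array was also above its dip in a group otherwise below it: ES 46 had Comp at 7.76 and Prg4 at 10.42, and ES 49 had Matn4 at 6.93. CDS 1 had the Matn3 probe set 1455948_PM_x_at at 8.11, with the next CDS tumor at 5.10. The others lay below their dips. ES 41 had Hapln1 1421633_PM_a_at at 2.61, Matn1 at 2.26 and Cytl1 at 3.23. ES 51 was lowest for Hapln1 1438020_PM_at at 1.31, and eMC empty 7 was lowest for Matn3 1455948_PM_x_at at 2.39.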

How the results depend on the processing

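Scaling moved the counts of called member probe sets most in CDS against ES, between the cultures and in CDS against eMC CIC-DUX4. Array weights did so in CDS against eMC empty, and 1 fit of all groups in ES against eMC empty. Under median scaling of every array, 4 were called in CDS against ES (7 as reported), where 9.17% of all probe sets were, 0 between the cultures (10), where 0 of all were, and 4 in CDS against eMC CIC-DUX4 (8), where 3.88% of all were. Array weights gave 7 in CDS against eMC empty (4), with 18.3% of all. CDS against eMC CIC-DUX4 had 5 without the 3 arrays of high median (CDS 2, eMC CIC-DUX4 5 and 6), with 6.37% of all. ES against eMC empty (5, with 20.8% of all) had 2 with offset 1 (19.4%), 1 with all 4 groups in 1 fit (18.2%) and 3 with 1 probe set per gene (29.4% of genes). Leaving out 1 array at a time gave 6 to 8 for CDS against ES, 10 each time for eMC CIC-DUX4 against eMC empty, 3 to 4 for CDS against eMC empty, 5 to 8 for CDS against eMC CIC-DUX4 (5 without CDS 3 or eMC CIC-DUX4 5, 6 or 7) and 5 to 6 for ES against eMC empty. The share of all probe sets called with 1 array left out was 6.69% to 14.7%, 23.0% to 29.9%, 5.81% to 11.8%, 4.89% to 13.9% and 15.9% to 22.9%, in the order of these 5 comparisons. Of all called probe sets, the share called higher was, as deposited and after quantile normalization, 58.7% and 49.3% in CDS against ES, 90.6% and 55.0% between the cultures, 74.4% and 48.0% in CDS against eMC empty, 27.4% and 47.4% in CDS against eMC CIC-DUX4, and 72.0% and 49.1% in ES against eMC empty.

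Signs turned only in differences that were not called as deposited. In CDS against ES, Matn1 was -0.065 after quantile normalization, -0.29 with median scaling and -0.072 with quantile normalization without the arrays of high median, an alternative chosen after seeing the data, and Hapln1 1421633_PM_a_at was -0.26 with median scaling. In CDS against eMC empty, Matn3 1422148_PM_at was -0.97 after quantile normalization and -0.78 without the arrays of high median as well. In CDS against eMC CIC-DUX4, Acan was 1.55 after quantile normalization, 1.82 without those arrays as well, 0.25 with median scaling and -1.18 to 0.13 with 1 array left out (0.13 without CDS 3), and Matn4 was 0.075 with quantile normalization without those arrays. In ES against eMC empty, Prg4 was -1.01 after quantile normalization and -0.87 to 0.82 with 1 array left out (-0.87 without ES 46), and Matn4 was 0.13 with median scaling, 0.53 with array weights and -0.90 to 0.026 with 1 array left out (0.026 without ES 51). The cause was not tested.

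With the replicate number as a block, 10 were called between the cultures (32.8% of all probe sets), 3 in CDS against eMC empty (7.50%) and 9 in CDS against eMC CIC-DUX4 (34.8%). Same-numbered arrays had correlations of deviations from -0.31 to 0.57, so the numbers were not taken as a pairing; ES shares no numbers with the other groups. Signals below the dips limit what can be said of Hapln1 and Matn1 outside eMC CIC-DUX4.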
